A study of Rattus norvegicus with 10 samples.

Results

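The positively charged CDR3s of the rat heavy chain were defined as the productive CDR3-IMGT sequences in which lysine and arginine outnumbered aspartate and glutamate by 3 or more. Histidine was not counted as charged. The rule was applied to the translated CDR3 of every productive sequence of all 10 animals, and each distinct amino acid sequence counted once. It gave 1738 members among 215200 unique CDR3s, and 8269 of the 1615896 productive reads carried them. A read is here a sequence collapsed by its molecular tag. Of the members, 1595 had a net charge of 3, 135 had 4 and 8 had 5, while 10616 CDR3s with a net charge of 2 lay just outside the rule.

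The libraries were made from total RNA of the whole spleen cell suspension of Wistar rats, and 1 library was analysed per animal. In the HuD group 5 rats received recombinant human HuD, an onconeural antigen. In the DNP group 5 rats received keyhole limpet hemocyanin that carried dinitrophenyl residues, a small and well-defined epitope. All 10 rats were given the immunogen once in complete Freund's adjuvant, followed by 3 boosts in incomplete adjuvant, and no unimmunized animal was among the samples used. The cells were not sorted for antigen binding, so that heavy chain transcripts of spleen B cells of any specificity were sampled together. The paper assigned most of the reads to IgG, with IgA next, and the classes were not separated here. As the libraries hold only heavy chain sequences, the splenocyte label could not be checked against marker genes.

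The CDR3 of the heavy chain is formed where an IGHV, an IGHD and an IGHJ gene are joined, with nucleotides trimmed and added at the junctions, and it often lies in the centre of the antigen-binding site. The first residues, often alanine and arginine, are encoded by the end of the IGHV gene, and the last ones by the IGHJ gene. Aspartate stands next to the end of the CDR3 in the products of several IGHJ genes and offsets positive charge. Arginine-rich CDR3s are known from antibodies to DNA and from polyreactive antibodies in mouse and human, and B cells that carry them are in part removed or edited during development.

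Examples of the sequences themselves are given first, because the later results refer back to them. The following CDR3s were the members with most reads in their animal among those of at most 14 residues, and the letters run from the first to the last residue of the CDR3.
Rat HuD1: ARRRRNWYYFDY
Rat HuD2: ARVGTRVSRFAY
Rat HuD3: ARHRYKRTVAAVDY
Rat HuD4: ARGVRGRVWFTY
Rat HuD5: AKGYNTRRGWFAY
Rat DNP1: ARHRRRVWDY
Rat DNP2: ARRGRSPFTY
Rat DNP3: ARYRHKVFFTF
Rat DNP4: ARDLLRWRRGFAY
Rat DNP5: VRRGGKGLFSK

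In 8 of these 10 sequences, all but those of DNP4 and DNP5, the leading residues were alanine and arginine or alanine and lysine with no acidic residue directly after them. The endings fell into FDY, VDY and WDY on the one hand and FAY, FTY, FTF and FSK on the other, which are the contributions of different IGHJ genes. The sequences of HuD2, HuD3, HuD4, HuD5, DNP2, DNP3 and DNP4 had 3 more basic than acidic residues, as had those of HuD1 and DNP1, where 4 arginines stood against 1 aspartate. The DNP5 sequence had a net charge of 4 from 2 lysines and 2 arginines.

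Over all members, a CDR3 held on average 2.88 arginines and 0.609 lysines, against 0.367 aspartates and 0.0386 glutamates. Arginine made up 82.6% of the basic residues. Of the 1738 members, 1066 (61.3%) held no acidic residue at all. In 71.3% of the members at least 2 basic residues stood side by side, as in ARRRRNWYYFDY, and in 19.1% at least 3 did. These values describe what the rule selects and were not tested. The charge was not placed evenly. A basic residue was present at the second position in 95.8% of the members and in 73.2% of the other CDR3s, and at the third position in 41.3% and 8.33%. An acidic residue was the second-last one in 31.9% of the members and in 67.7% of the other CDR3s. When the first 2 and the last 2 residues were left out, 698 members (40.2%) still had a net charge of 3 or more in the remaining interior.

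The 10 libraries held between 71562 and 287196 reads, of which 60647 to 259834 were productive, and between 6568 and 39753 unique CDR3s. DNP3 was the smallest library by each of these counts. The exact Clopper-Pearson 95% intervals given by the counts, which cover counting error only, ran from 0.323 to 0.532% for the share of members in DNP1 and from 0.836 to 1.11% in HuD3, and were widest in DNP3 (0.346 to 0.705%). Nothing in the labels states whether the animals were kept or processed in batches. The p-values of the exact tests refer to the spread between these animals. Those of edgeR, used for the IGHV genes, also rest on a spread pooled over genes.

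The first question was whether the share of positively charged CDR3s depended on the immunogen. In the HuD animals 129, 331, 197, 197 and 259 members were found in HuD1 to HuD5, which were 0.743, 0.833, 0.965, 0.706 and 0.938% of the unique CDR3s of these animals. In the DNP animals 65, 179, 33, 243 and 112 members were found in DNP1 to DNP5, or 0.418, 0.821, 0.502, 0.756 and 0.811%. The lowest shares were those of DNP1 and DNP3, while the other DNP animals lay within the range of the HuD animals. The means were 0.837 ± 0.115% in HuD and 0.662 ± 0.188% in DNP animals (SD, n = 5 each). The difference did not pass an exact two-sided permutation test over the ways to choose 5 of 10 animals (p = 0.135, adjusted p = 0.540 over 4 comparisons between the immunogens, where the smallest p the design allows is 0.00794). At the same number of reads in each animal the difference was 0.141 percentage points.

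The share of productive reads carried by members was 0.276, 0.655, 1.14, 0.197 and 0.450% in HuD1 to HuD5, and 0.321, 0.532, 0.153, 0.309 and 1.25% in DNP1 to DNP5. HuD3 and DNP5 were the highest of their groups, and the groups overlapped over nearly their whole range. The means of 0.544 ± 0.378% in HuD and 0.514 ± 0.435% in DNP animals (SD, n = 5 each) were not separated by the exact permutation test (p = 0.873, adjusted p = 0.873). As whole spleen cells were used, more cells of a clone and more transcript per cell cannot be told apart in any share of reads.

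**Figure D1:**
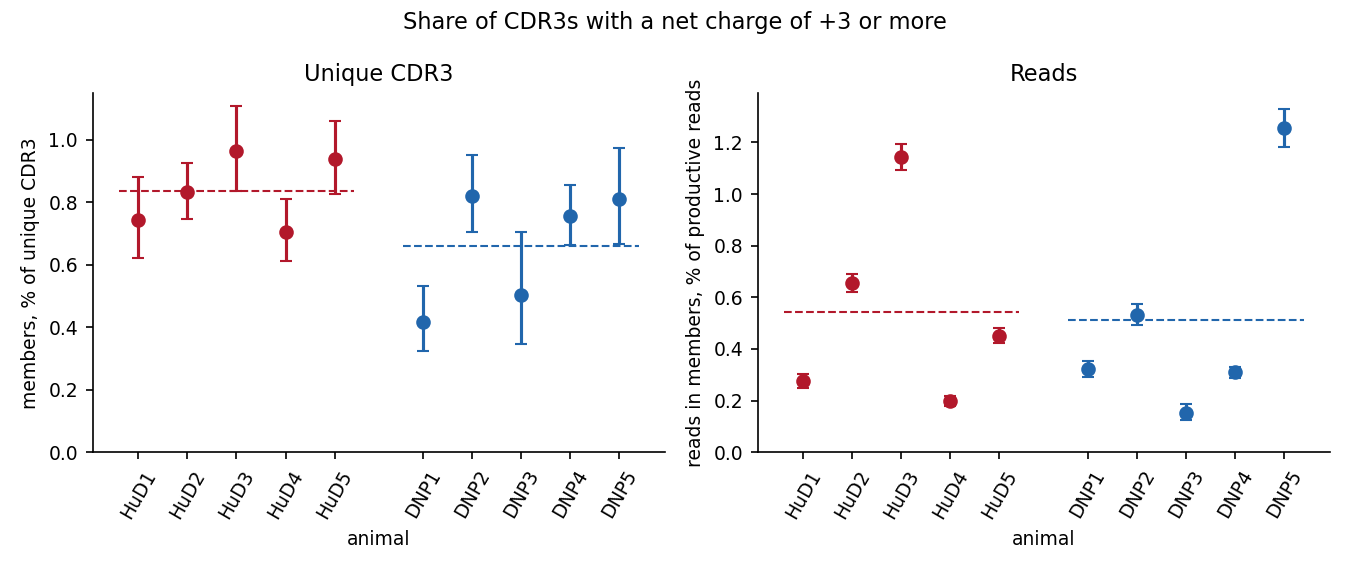
Members as a percentage of the unique CDR3s (left) and of the productive reads (right) of each animal, with exact 95% intervals that cover counting error only; dashed lines are group means. By unique CDR3s DNP1 and DNP3 sit lowest, at 0.418 and 0.502%, and by reads HuD3 and DNP5 stand above the other animals, at 1.14 and 1.25%.

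In HuD3 and DNP5 the 3 most-read members held 57.2 and 67.3% of the member reads. In the other animals they held between 26.4% (DNP2) and 65.8% (DNP1). In DNP5, VRRGGKGLFSK alone had 595 reads, which was 51.7% of the member reads and made it the CDR3 of rank 12 in that animal. Its relative VRRGGKGLFSN, which lacks the last lysine, followed with 140 reads, and IRRGGKGLFSK with 39 reads. The reads of VRRGGKGLFSK were annotated with 17 different IGHV genes, with IGHV5-25 in 67.3% of them, and with IGHJ3 in 99.0%. As 22.2% of the member reads named several IGHV genes, 17 annotations need not be 17 separate joinings. In HuD3 the leading members were ARHRYKRTVAAVDY with 480 reads (rank 40, mostly IGHV5-25 and IGHJ2) and ARVGRSRLQGFAN with 343 reads (mostly IGHV5-29 and IGHJ3).

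In the remaining animals the leading members were smaller. HuD2 had 231 reads of ARVGTRVSRFAY and 205 of ARLWLRRVHNWFAY, HuD5 had 161 of AKGYNTRRGWFAY, HuD4 had 88 of ARGVRGRVWFTY and HuD1 had 74 of ARRRRNWYYFDY. DNP4 had 147 reads of ARDLLRWRRGFAY and 102 of ARDLLRWRRGFAH, both with IGHV2-41 in most of their reads. DNP1 had 119 reads of a CDR3 of 16 residues, DNP2 had 63 of ARRGRSPFTY, and DNP3 had 26 of a CDR3 of 15 residues. The most-read member held between 9.57% (DNP2) and 51.7% (DNP5) of the member reads of its animal. Among the 1000 most-read CDR3s of an animal, between 2 and 10 were members. Without the most-read member of each animal, which was chosen as a check after seeing the data, the read share was 0.432 ± 0.283% in HuD and 0.338 ± 0.202% in DNP animals (SD, n = 5 each; p = 0.579 in the exact permutation test). HuD3 at 0.86% and DNP5 at 0.61% were still the highest of their groups.

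Members were then compared with the other CDR3s of the same animal by the number of reads. Of the member entries, 1415 of 1745 had a single read. The percentage with 2 or more reads was 21.9 ± 9.54% for members and 24.8 ± 6.04% for other CDR3s (SD, n = 10), a difference that did not pass the exact sign-flip permutation test over animals (p = 0.111, adjusted p = 0.111). The mean number of reads per unique CDR3 was lower for members in 8 of 10 animals. In HuD1 to HuD5 a member had 3.34, 4.44, 9.74, 1.84 and 3.61 reads, against 9.04, 5.66, 8.22, 6.64 and 7.55 reads for another CDR3. In DNP1 to DNP5 a member had 6.88, 3.68, 2.82, 3.31 and 10.3 reads, against 8.97, 5.70, 9.27, 8.12 and 6.61 reads.

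The exceptions were HuD3 and DNP5, the animals with the large clones named above. The mean log2 ratio of members to other CDR3s was -0.78 ± 0.83 (SD, n = 10; adjusted p = 0.0286 over 4 comparisons, exact sign-flip permutation test). Without the most-read member of each animal it was -1.17, and with the most-read CDR3 of both sets left out it was -1.14 ± 0.72, below 0 in all 10 animals (SD, n = 10, chosen after seeing the data). The first of these values had to fall, since the other CDR3s were left as they were, and in the second 1 CDR3 weighs more in the smaller set of members, so that both are given without a test. The call was not kept when HuD1, HuD4, HuD5, DNP3 or DNP4 was left out (adjusted p = 0.0573 for each), or when the CDR3s of a single read were left out (log2 ratio -0.70, adjusted p = 0.0729). It was also lost with histidine counted (-0.57, adjusted p = 0.0703) and at a net charge of 4 or more (-1.28, adjusted p = 0.0885, all in the exact test), and at a net charge of 2 or more the ratio was 0.10. Between the immunogens the log2 ratio of read share to share of unique CDR3s averaged -0.89 ± 0.84 in HuD and -0.68 ± 0.90 in DNP animals (SD, n = 5 each; p = 0.706, adjusted p = 0.873, exact permutation test).

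Members were longer than other CDR3s. The mean length was 12.9 ± 0.464 residues for members and 12.1 ± 0.316 for other CDR3s (SD, n = 10), and members were longer in 10 of 10 animals, by 0.297 to 1.61 residues (mean 0.83, adjusted p = 0.00391, exact sign-flip permutation test). A longer CDR3 has more room for charged residues, so that a part of this difference is set by the rule. Members ranged from 4 to 24 residues, and 7.19% of them had fewer than 10 residues, against 17.4% of the other CDR3s. Of the entries of 9 to 10 residues 0.411% were members (mean of 10 animals). The share was 0.903% at 11 to 12 residues, 0.958% at 13 to 14, 0.889% at 15 to 16 and 0.589% at 17 to 18. At 19 residues and more it was 1.06 ± 1.34% (SD, n = 10). CDR3s of more than 14 residues made up 22.4% of the members and 21.0% of the others. The lengths in HuD (13.01 ± 0.329) and DNP animals (12.8 ± 0.587; SD, n = 5 each) were not separated by the exact permutation test (p = 0.484, adjusted p = 0.873).

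Length also grew toward the negative end of the charge scale. Mean lengths were 13.9 residues at a net charge of -3, 11.7 at 0, 12.4 at 2 and 12.9 at 3. Mean length was therefore higher toward both ends of the scale. The positive side was shorter than the negative side at the same distance from 0. Reads per unique CDR3 were 5.03 at -3, 8.51 at 0, 8.97 at 2, 4.42 at 3 and 7.11 ± 10.9 (SD, n = 10) at 4 or more, so that the members of charge 3 lay below the class of charge 2, while the few members of higher charge varied too widely between animals to be placed. These classes are given as a description over 10 animals, without a test.

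**Figure D2:**
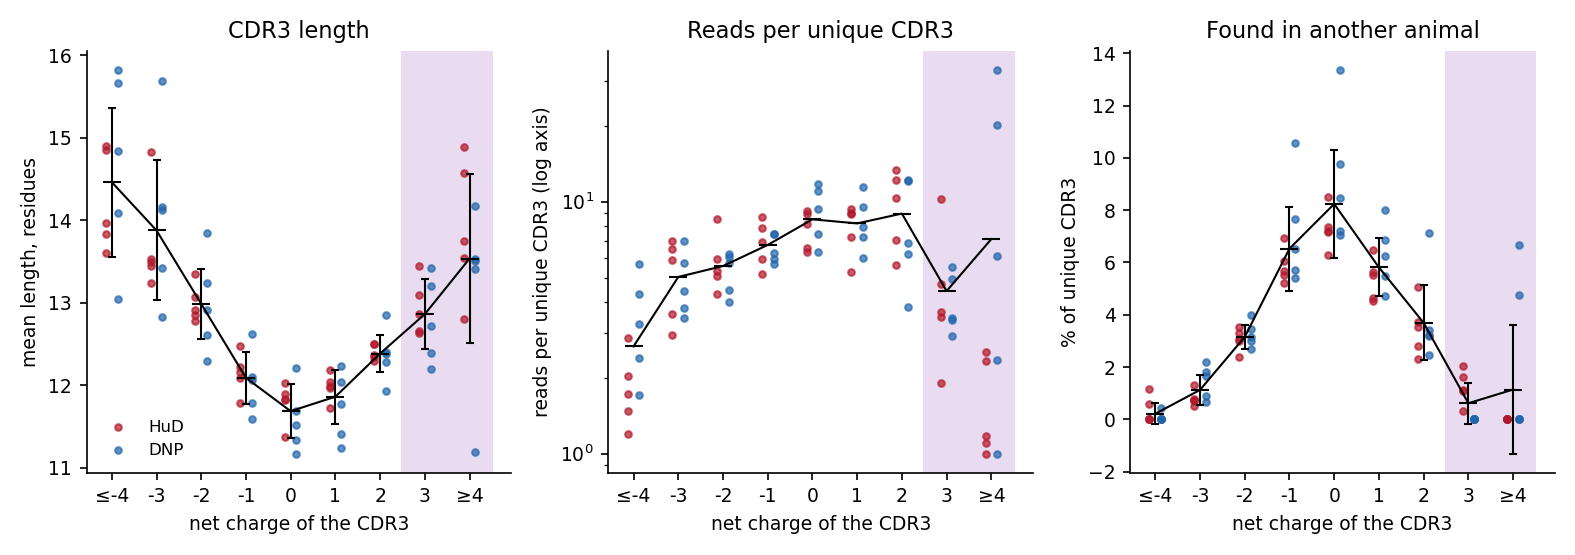
Mean length in residues (left), mean reads per unique CDR3 on a log axis (centre) and percentage of unique CDR3s that were also found in another animal (right), by net charge of the CDR3; coloured points are animals, black marks are means with SD in the left and right panels, and the shaded classes are the members. Sharing is highest at a net charge of 0 (8.24%) and is 0.619% at 3, while length is lowest at 0 (11.7 residues).

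Very few positively charged CDR3s were found in more than 1 animal. The percentage of an animal's members that were read in at least 1 of the other 9 animals was 1.55, 0.302, 1.02, 1.02 and 1.93% in HuD1 to HuD5, and 0, 0.559, 0, 0 and 0.893% in DNP1 to DNP5. For the other CDR3s it was 6.67, 4.84, 5.86, 5.80 and 5.38% in HuD1 to HuD5, and 6.66, 5.69, 9.75, 5.25 and 7.58% in DNP1 to DNP5. With 0 shared members, counts of 65, 33 and 243 members allow shares of up to 4.62% in DNP1, 9.09% in DNP3 and 1.23% in DNP4. Members were below the other CDR3s in 10 of 10 animals, with means of 0.726 ± 0.676% and 6.35 ± 1.44% (SD, n = 10; adjusted p = 0.00391, exact sign-flip permutation test).

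A shorter CDR3 has fewer possible sequences, and at equal length the difference was -3.27 percentage points rather than -5.62, with the same adjusted p. Low sharing was not confined to the positive side of the scale. At a net charge of -3 1.13% of the unique CDR3s were found in another animal, against 8.24% at 0, 3.69% at 2 and 0.619% at 3.

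In all, 7 members (0.403%) occurred in more than 1 animal, against 5236 (2.45%) of the other CDR3s, and none of the 7 in more than 2 animals. None was found in both immunogen groups, and none was present in all 5 animals of a group. Of the 7, 6 were shared between HuD animals and 1 between DNP animals. The HuD animals held 1113 of the 1745 member entries and the DNP animals 632. This split was not made for the shared CDR3s outside the rule, so it was not compared with theirs. They are listed here with the animals that carried them, since they are the only members open to a comparison between rats.
Rats HuD3 and HuD5: TRRGYFRY
Rats HuD3 and HuD5: ARRGYFRY
Rats HuD1 and HuD5: ARRGGLRNWFAY
Rats HuD1 and HuD5: ARHGRLRNWFAY
Rats HuD4 and HuD5: ARRRLRGYFDY
Rats HuD2 and HuD4: TRDRRVPRY
Rats DNP2 and DNP5: VRRGGKGLFSK

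The shared HuD members had few reads. TRRGYFRY had 5 reads in HuD3 and 3 in HuD5, ARRGYFRY had 3 and 1, and the other 4 had 5 reads or fewer over both animals. Of these 6, 4 differed in a single residue from a far more abundant CDR3 of charge 2 in the same animals. TRRGYFRY differed in a single residue from TRGGYFRY, which had 4473 reads in HuD3 and 2545 in HuD5, and ARRGYFRY from ARGGYFRY, which had 190 reads in HuD3 and 189 in HuD5. ARRGGLRNWFAY and ARHGRLRNWFAY both differed in a single residue from ARHGGLRNWFAY, which had 1022 reads in HuD1 and 98 in HuD5. TRDRRVPRY had 1 read in each of its animals and no such neighbour.

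VRRGGKGLFSK had 595 reads in DNP5 and 2 in DNP2, and 1 of its molecular tags was the same in both animals. The paper describes the random tag as too short, and the matches that chance would give at these read numbers were not computed. None of the other 6 shared members had a tag in common, while 189 of the 5236 shared CDR3s outside the rule (3.61%) did. With all CDR3s that had a tag in common left out, an alternative chosen after seeing the data, 0.581 ± 0.738% of the members and 6.02 ± 1.20% of the other CDR3s (SD, n = 10) were found in another animal (p = 0.00195, exact sign-flip permutation test). In this count members were again below in every animal.

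The neighbours within an animal were examined for all members. Of the 1745 member entries, 399 (22.9%) were 1 substitution from a CDR3 of the same animal with at least 10 times as many reads, against 20.3% of the other entries. Of these 399, 309 had a single read. The more abundant neighbour was itself a member in 199 cases, had a charge of 2 in 194 and a charge of 1 in 6. Among the substitutions that led from a neighbour outside the rule to a member, 156 only gained a basic residue, 38 only lost an acidic one and 6 did both. Glycine to arginine was the most frequent with 43 members, followed by leucine to arginine with 17, and by asparagine to lysine and threonine to arginine with 16 each. Somatic mutation and errors of amplification or sequencing cannot be told apart for single reads. Without such variants, the comparisons of length, reads and sharing kept their direction and their calls.

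The use of IGHJ genes was the clearest difference in the joining of members. IGHJ3, whose product has alanine rather than aspartate near the end, was used by 45.7 ± 4.75% of the members and 20.7 ± 1.43% of the other CDR3s (SD, n = 10). In HuD1 to HuD5 43.4, 50.5, 42.1, 45.2 and 53.7% of the members used it, and in DNP1 to DNP5 36.9, 48.0, 42.4, 47.3 and 47.3%, each above the other CDR3s of the animal (18.2 to 22.6%). IGHJ2 was used by 37.1 ± 4.64% of the members and 51.7 ± 2.79% of the others, and IGHJ4 by 8.13 ± 3.62% and 16.5 ± 3.44%, lower among members in 10 of 10 animals. All 3 differences had an adjusted p of 0.00260 in the exact sign-flip permutation test over animals. IGHJ1 was used by 9.12 ± 3.91% of members and 11.1 ± 1.21% of the others (adjusted p = 0.0879, exact test), and without HuD1 the difference was -2.49 percentage points (adjusted p = 0.0469, exact test).

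This difference is partly fixed by the rule, as the aspartate encoded by an IGHJ gene counts against a member. An acidic second-last residue was present in 94.6% of the IGHJ1, 78.3% of the IGHJ2, 94.6% of the IGHJ4 and 5.78% of the IGHJ3 CDR3s. When the charge was counted without the first 2 and last 2 residues, IGHJ3 was used by 12.9 ± 5.75% of the CDR3s with an interior charge of 3 or more and by 20.9 ± 1.45% of the others, so that the direction was reversed (-8.00 percentage points, adjusted p = 0.0312, exact test). For IGHJ1, IGHJ2 and IGHJ4 the sign was reversed too, at 5.53, 1.19 and 1.28 percentage points, and none of these 3 passed the threshold.

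**Figure D3:**
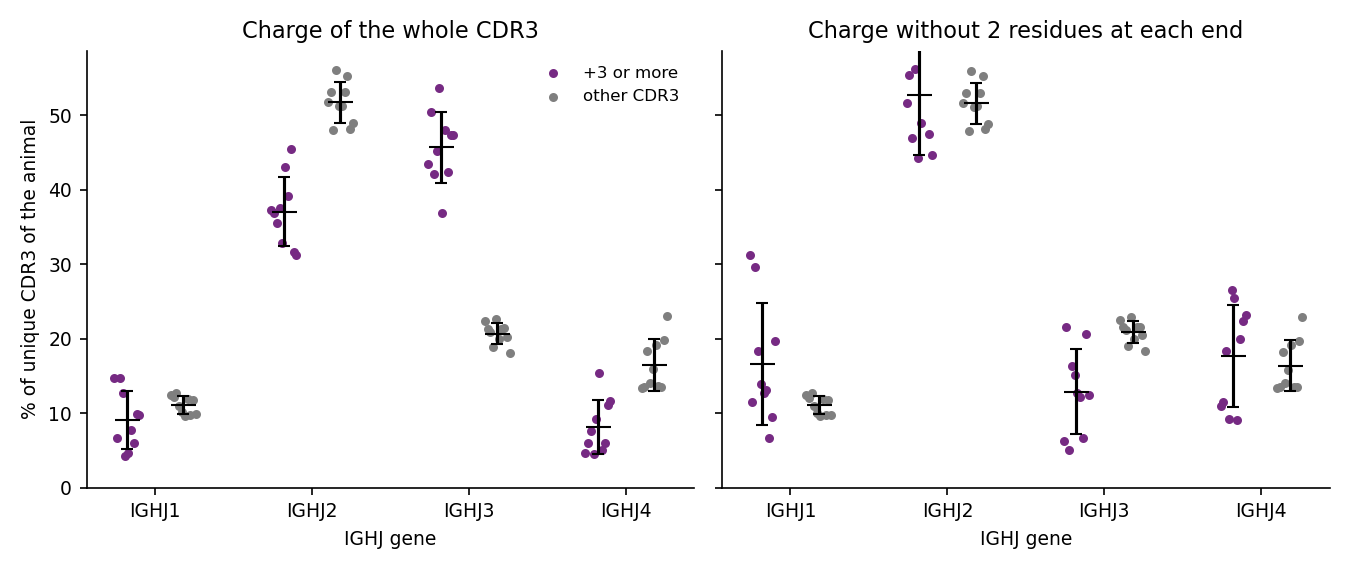
Percentage of unique CDR3s by IGHJ gene in each animal for CDR3s with a net charge of 3 or more and for other CDR3s, with the charge of the whole CDR3 (left) and of its interior without 2 residues at each end (right); points are animals, black marks mean ± SD. IGHJ3 is used by 45.7% of the members under the whole-CDR3 charge and by 12.9% under the interior charge.

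IGHD genes were called for 99.1% of the member entries, from short matches, and are given as a description. IGHD1-11 was named for 21.9 ± 6.18% of the members and 12.6 ± 2.09% of the other CDR3s (SD, n = 10), higher in 10 of 10 animals. IGHD1-5 (7.11 and 3.05%) was higher in 9 of 10 animals and IGHD4-3 (8.25 and 6.50%) in 8. IGHD1-4 (10.2 and 6.60%) was higher in only 6 of 10 animals, with 23.9% of the members in HuD2, while IGHD1-6 was at 5.74 and 5.88%. Outside the 5 most used genes, 3 were picked after their values were seen. IGHD1-12 was named for 5.09% of the members and 12.1% of the others, lower in 10 of 10 animals. IGHD1-2 (5.51 and 9.58%) was higher in 1 of 10 animals, and IGHD4-5 (2.22 ± 2.69% and 0.220%), with 39 members, in 9. The IGHD bases lie within the CDR3 whose charge is counted, so that a part of these differences can be set by the rule.

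Members were mostly formed with the IGHV5 subgroup, which held 85.4 ± 5.01% of the members and 72.6 ± 4.23% of the other CDR3s (SD, n = 10), higher among members in 10 of 10 animals. IGHV2 held 5.45 ± 3.23% of the members and 14.01 ± 2.63% of the others, and was lower in 10 of 10 animals. IGHV3 held 3.75 and 6.39%. The most used genes among members were IGHV5-25 (17.3%), IGHV5-7 (12.3%), IGHV5-29 (9.14%), IGHV5-20 (8.01%), IGHV5S13 (7.66%), IGHV5-22 (6.88%), IGHV5-31 (6.31%), IGHV5-17 (3.41%), IGHV3-1 (2.90%) and IGHV5S10 (2.48%), as means of 10 animals. The genes of a subgroup are close in sequence, and a CDR3 was given to the gene with most of its reads.

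The numbers of unique CDR3s per IGHV gene were tested with edgeR's quasi-likelihood test over the 68 genes with at least 100 unique CDR3s, with the animal as a block. At an adjusted p under 0.05, 18 genes (26.5%) were lower and 2 genes (2.94%) higher among members, and the median log2 fold change of all 68 was -1.20. Of the 18 lower genes 12 belonged to IGHV2, of which 29 were tested, and 2 each to IGHV5 and IGHV6, of which 23 and 3 were tested. The last 2 were 1 gene each of IGHV3 and IGHV10. IGHV2-63 was found with 1 member, in HuD3, and 1978 other CDR3s (adjusted p = 0.000480, edgeR). Its share of the members was 0.0641 times that of the other CDR3s, with an exact 95% interval of 0.00162 to 0.357 that covers counting error only. IGHV2-30 was found with 2 members and 2252 others (adjusted p = 0.000606, edgeR), a ratio of 0.113 (0.0136 to 0.406). The fitted fold changes of both genes rest on these 1 and 2 members, and that of IGHV2-63 was -3.95 on the log2 scale in all animals and -9.67 without HuD3, where no member was left. IGHV3-3 was found with 15 members and 5037 others (log2 fold change -1.46, adjusted p = 0.0143, edgeR). IGHV2-30 and IGHV3-3 were picked as examples after their values were seen.

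Of the 18 genes, 7 had no member at all, namely IGHV2-19, IGHV2S30, IGHV10-5, IGHV6-8, IGHV2S8, IGHV5-54 and IGHV5-62. Against a floor of 3 members over all animals, IGHV2-19 was at least 1.58-fold lower, IGHV10-5 at least 1.42-fold, IGHV6-8 at least 1.40-fold, IGHV2S30 at least 1.32-fold, IGHV2S8 at least 1.26-fold and IGHV5-54 at least 1.13-fold lower, and for IGHV5-62 the counts gave no bound. The IGHV gene can shape the charge directly through the residues it leaves at the start of the CDR3. The second residue was basic in only 3.15% of the CDR3s joined to IGHV10-5, 5.26% for IGHV6-8, 6.45% for IGHV6-6 and 4.64% for IGHV5-54. Among the IGHV2 genes that were lower it was basic in most CDR3s, as for IGHV2-63 (91.7%) and IGHV2-30 (93.6%). When only the interior charge was counted, no gene passed the threshold in edgeR, with 19 genes at an unadjusted p under 0.05. That rule selected only 810 CDR3s against 1738 members, so fewer counts were tested. The median log2 fold change of the 68 genes was then -1.38, against -1.20 for the members.

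The 2 genes that were higher were IGHV5-7, with 12.3 ± 4.53% of the members and 7.79 ± 2.54% of the others (log2 fold change 0.68, adjusted p = 0.0167), and IGHV5-25, with 17.3 ± 7.66% and 11.2 ± 3.74% (0.53, adjusted p = 0.0271; SD, n = 10). Both were higher in 9 of 10 animals. These calls were not kept under other settings. With TMM factors no gene was higher and 24 were lower, with DESeq2 no gene was higher and 20 were lower, with limma no gene was higher and 49 were lower, and the DESeq2 log2 fold changes of IGHV5-7 and IGHV5-25 were -0.19 and -0.31. Without HuD5 no gene was called higher in edgeR, and without HuD3, DNP3 or DNP5 only 1 was.

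IGHV use by members was also compared between the immunogens, over the 18 genes with at least 20 members. In edgeR 1 gene (5.56%) was higher in HuD and none (0.0%) lower, with 2 genes at an unadjusted p under 0.05. The gene was IGHV5-29, which was used by 11.6, 14.8, 18.8, 21.3 and 15.1% of the members in HuD1 to HuD5, and by 0, 8.94, 0, 0 and 0.893% in DNP1 to DNP5. All 5 HuD animals lay above all DNP animals, and only DNP2 among the DNP animals had more than 1 such member (16 members). For the animals without such a member, the limits on a share are those given above for DNP1, DNP3 and DNP4. The log2 fold change was 2.71 (adjusted p = 0.00198, edgeR). As edgeR pools the spread over genes, its p can lie below 0.00794, the smallest that the exact permutation test allows. Without DNP2 the log2 fold change was 5.79. The call was lost without HuD3 (2.65, adjusted p = 0.102) and with DESeq2 (3.28, adjusted p = 0.0549) or limma (adjusted p = 0.106). At a net charge of 2 or more it was lost too (2.52, adjusted p = 0.131, edgeR).

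The other CDR3s showed the same direction. Among the other CDR3s IGHV5-29 was used by 11.8 ± 3.51% in HuD and 1.86 ± 3.19% in DNP animals (SD, n = 5 each), next to 16.3 ± 3.77% and 1.97 ± 3.92% of the members. Members were 1.17 of 100 unique CDR3s with IGHV5-29 in HuD and 0.842 in DNP animals. Among the genes with the next smallest p was IGHV2-41, with 19 members in DNP4 and 2 in HuD4 and none elsewhere (log2 fold change -3.01, adjusted p = 0.131). The DNP4 members with this gene included ARDLLRWRRGFAY and ARDLLRWRRGFAH, shown above. In DNP4, 10 members were 1 substitution from ARDLLRWRRGFAY, and each counted as a separate CDR3. The IGHV tests were not rerun without single-substitution variants.

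**Figure D4:**
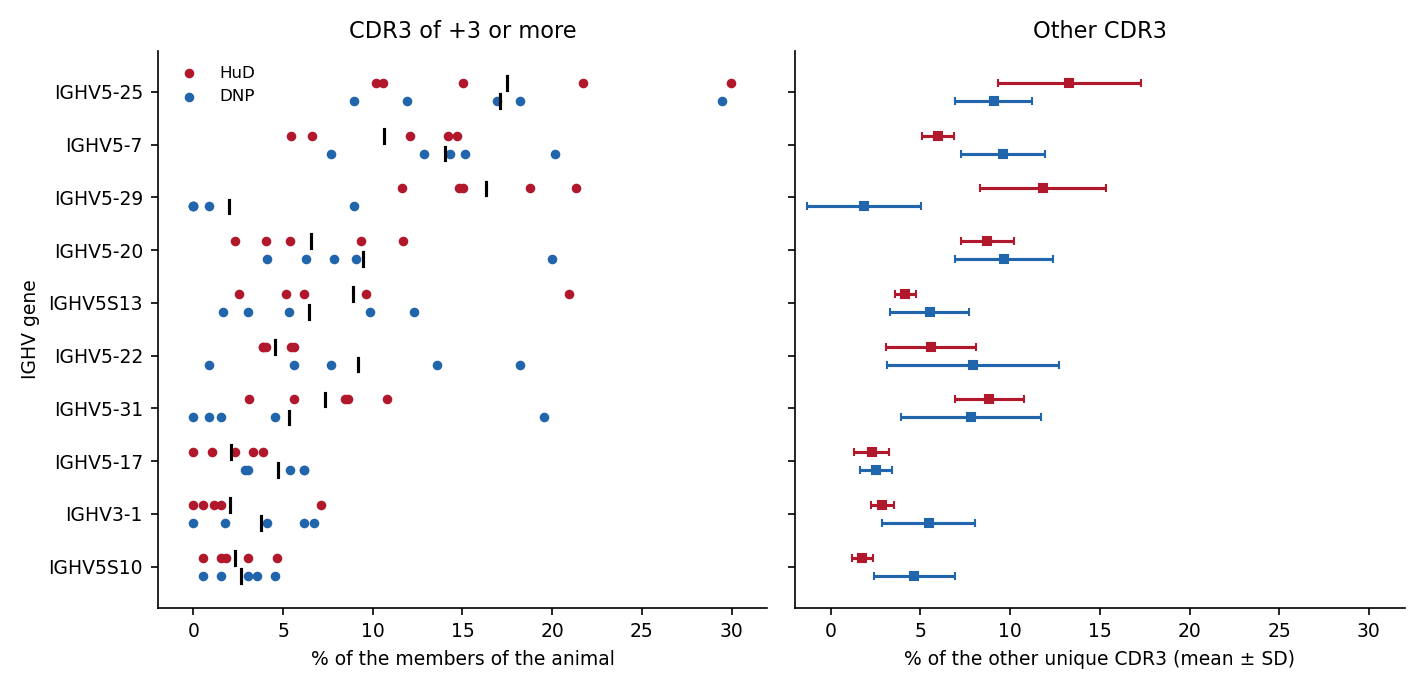
Use of the 10 IGHV genes most frequent among members, as a percentage of the members of each animal (left; points are animals, black marks group means) and of the other unique CDR3s (right; mean ± SD over 5 animals), for HuD and DNP animals. IGHV5-29 is above 11% in every HuD animal and below 9% in every DNP animal, and the other CDR3s show 11.8 and 1.86%.

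The rest of the variable domain was not used by the rule. The mean net charge of CDR1 was -0.512 ± 0.126 with members and -0.398 ± 0.0658 with other CDR3s (SD, n = 10), lower in 10 of 10 animals (adjusted p = 0.00586, exact sign-flip permutation test). For CDR2 it was -0.413 ± 0.102 and -0.317 ± 0.0696, lower in 9 of 10 animals (adjusted p = 0.00879, exact test). For FR1 to FR3 it was 1.97 ± 0.183 and 1.92 ± 0.117 (adjusted p = 0.367, exact test). The differences for CDR1 and CDR2 were smaller at equal IGHV use, and their cause was not tested. With the other CDR3s weighted to the IGHV use of the members, an alternative chosen after seeing the data, the differences were -0.0237 for CDR1 and -0.0235 for CDR2, and neither passed the exact test (adjusted p = 0.577 for both).

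The uncharged residues were not counted by the rule, but a basic residue at the second position takes the place of an uncharged one, so that a part of their differences can be set by it. Of the 16 residues other than lysine, arginine, aspartate and glutamate, 5 (31.2%) took a larger and 4 (25.0%) a smaller share of the uncharged residues in members at an adjusted p under 0.05. The aliphatic residues leucine, alanine, valine and isoleucine were higher, together with phenylalanine. Leucine made up 5.50 ± 1.78% in members and 3.55 ± 0.174% in other CDR3s, and alanine 15.3 ± 1.54% and 13.6 ± 1.21%. Valine was at 4.99 ± 0.917% and 3.91 ± 0.366%, isoleucine at 3.19 ± 0.750% and 2.43 ± 0.104%, and phenylalanine at 9.93 ± 0.786% and 8.66 ± 0.399% (SD, n = 10). Leucine, alanine and isoleucine were higher in 8 of 10 animals, valine in 9 and phenylalanine in 10. The adjusted p-values in the exact test were 0.0234 for leucine, 0.0417 for alanine, 0.0179 for valine and isoleucine and 0.0104 for phenylalanine. The call of alanine was lost when any single animal other than DNP3 or DNP5 was left out, with adjusted p-values of 0.0625 to 0.0833 in the exact test.

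The hydroxyl residues were lower. Threonine made up 5.18 ± 1.21% in members and 8.39 ± 0.578% in other CDR3s, lower in 10 of 10 animals (adjusted p = 0.0104, exact sign-flip permutation test). Tyrosine was at 20.01 ± 1.61% and 22.3 ± 1.08%, serine at 5.31 ± 0.948% and 6.72 ± 0.519%, and methionine at 1.09 ± 0.416% and 2.18 ± 0.267% (SD, n = 10), with adjusted p-values of 0.0125, 0.0125 and 0.0104 in the exact test. Phenylalanine, alanine, tyrosine and methionine are also encoded near the ends of the IGHJ genes. With the other CDR3s weighted to the IGHJ use of the members, chosen after seeing the data, the difference for phenylalanine was 0.61 percentage points instead of 1.27 and that for methionine -0.27 instead of -1.10. At this weighting leucine (2.12 percentage points), valine (1.63), isoleucine (0.80), threonine (-3.32), serine (-1.55) and tyrosine (-1.29) still passed the exact test, while alanine and methionine did not (adjusted p = 0.05 for both). Phenylalanine also still passed (adjusted p = 0.0357, exact test), and proline, at -0.72 percentage points, passed at this weighting (adjusted p = 0.0430, exact test).

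The first 2 and last 2 residues were then left out of the residue count, which was also chosen after seeing the data. In the remaining interior threonine made up 4.01 ± 1.87% in members and 5.64 ± 0.400% in other CDR3s (SD, n = 10), lower in 8 of 10 animals, and the difference of -1.63 percentage points was smaller than in the whole CDR3 (adjusted p = 0.0273, exact test). Tyrosine, at 16.2 ± 2.12% and 21.2 ± 0.994% (adjusted p = 0.00781, exact test), was lower in 10 of 10 animals. Alanine was at 3.46 ± 0.928% in members and 4.31 ± 1.02% in other CDR3s, so that its sign was reversed and its call lost (-0.85 percentage points, adjusted p = 0.114, exact test). The other 6 residues called in the whole CDR3 kept their direction and call. Glycine, the residue most often replaced by arginine in the single-residue neighbours, was at 12.3 ± 2.498% in members and 12.2 ± 0.430% in other CDR3s over the whole CDR3.

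**Figure D5:**
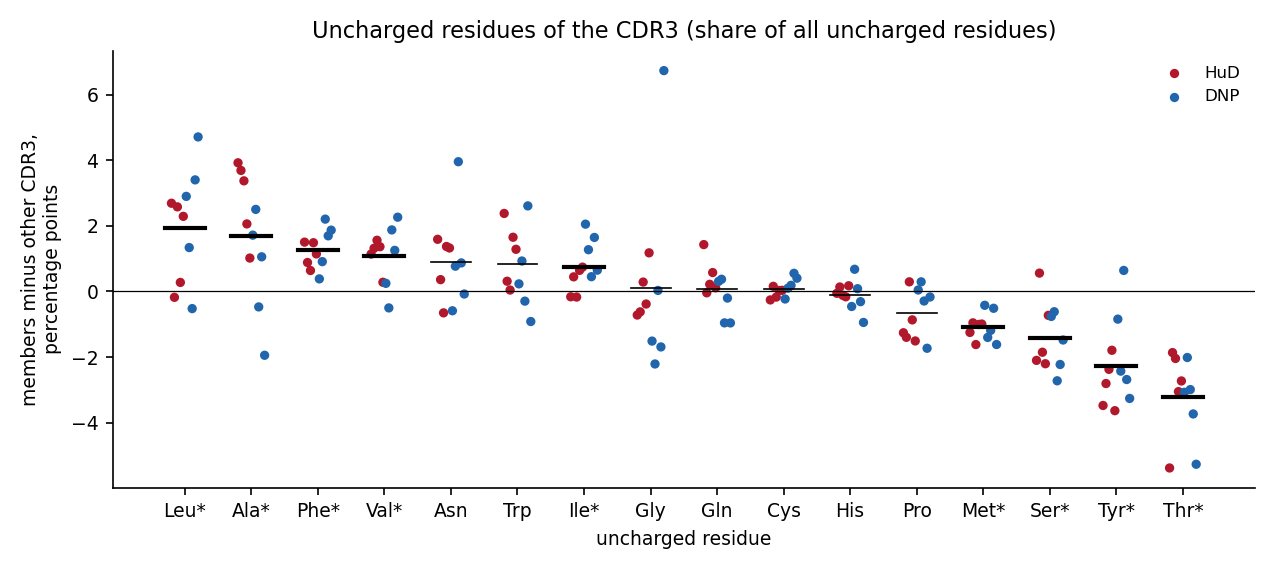
Difference between members and other CDR3s in the share of each uncharged residue among all uncharged residues, in percentage points; points are animals, black marks means, and stars and thick marks the residues at an adjusted p under 0.05. Leucine is highest at 1.95 percentage points and threonine lowest at -3.22.

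The members with the highest charge were examined last. Of the 8 CDR3s with a net charge of 5, each had a single read in a single animal, 4 in HuD and 4 in DNP animals. They included KTKVRRLARFAS and AKYRRKRVFAY of HuD2, ARRRIKRGYYYYY of HuD4, ARRRRPNRGAFYY of DNP2 and VRRGGKGRFSK of DNP5. The last of these differed in a single residue from VRRGGKGLFSK. At a charge of 4, the most-read members were VRRGGKGLFSK with 595 reads in DNP5, a CDR3 of 15 residues with 115 reads in DNP1, a CDR3 of 24 residues with 49 reads in HuD2, TRKRLRRVSYYFDY with 43 reads in DNP2 and IRRGGKGLFSK with 39 reads in DNP5. Over all members of charge 4, 79 were found in HuD and 57 in DNP animals. The read share of CDR3s with a charge of 4 or more differed between HuD and DNP animals by -0.174 percentage points (p = 0.119, adjusted p = 0.254, exact permutation test).

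Basic residues are also the cleavage sites of trypsin, the enzyme used to make peptides for mass spectrometry of antibodies. In a computed digestion, the peptide that covered the third residue of the CDR3 had a median length of 2 residues in members and 20.1 residues in other CDR3s (means over 10 animals). The sequences as used here end before the constant domain. A cleavage site before that end closed 100% of these peptides in members but 34.7% in other CDR3s. The median of the other CDR3s is therefore a lower bound. A length of 7 to 15 residues was reached by closed peptides in 6.95 ± 3.15% of the members and 8.84 ± 0.95% of the other CDR3s (SD, n = 10). These lengths follow from the residues counted by the rule and were not tested.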

How the data were processed

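Heavy chain variable domains were sequenced from spleen RNA of 10 rats in a single MiSeq run. The authors merged read pairs, collapsed reads that shared a molecular tag (at a UMI count of at least 1, where a stretch of 10 bases of the CDR3 extended the tag) and had them annotated by High-VQuest. The deposited files list the collapsed sequences of each animal with a count of sequenced copies, which was used here only as an alternative to counting every sequence once. The version of the IMGT reference is not given in the sources used here. Tags and PCR errors that escaped collapsing can add single reads.

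From these files, productive sequences were reduced to unique CDR3s per animal (Python 3.11.15, pandas 2.3.3, scipy 1.17.1). The gene with most reads was taken for IGHV, IGHD and IGHJ. Several IGHV genes were named by 14.1% of all reads and by 22.2% of the member reads. Values per animal were compared with exact permutation tests (between immunogens) or exact sign-flip tests (members against other CDR3s), adjusted after Benjamini-Hochberg within each family, at a threshold of 0.05. Counts of unique CDR3s per IGHV gene were tested with edgeR 4.0.16. TMM factors had been planned, but they gave wrong calls on data simulated at the library sizes found here. Library sizes alone were therefore used, and TMM became an alternative. A simulated call was scored by the change in a gene's share, which favours scaling by library size. Other library sizes were not simulated. DESeq2 1.42.0 and limma 3.58.1 (log2 of CPM plus 10) were further alternatives.

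Letters are given for CDR3s of at most 14 residues. Named were the 10 IGHV genes most used by members, up to 8 (members against others) or 5 (HuD against DNP) called genes per direction with the largest fold, the most-read members of each animal, the shared members and the most charged ones. The members, lists and tests were chosen with earlier results of these data known. The alternatives changed the charge threshold, the residues counted, the minimum of reads, the variants kept, the unit, the animals, the scaling and the test.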

Additional observations from a re-analysis of the deposited data

Results flagged for a closer look

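A single difference between the immunogens had an unadjusted p under 0.05 in a test of the difference itself, and it did not pass after adjustment. The share found in another animal, members minus other CDR3s, averaged -4.55 percentage points in HuD and -6.69 in DNP animals, a difference of 2.15 percentage points (p = 0.00794 in an exact permutation test over animals, the smallest p the design allows, and adjusted p = 0.0873 over the 11 such differences tested). DNP3, the smallest library, had the highest share of other CDR3s found in another animal (9.75%) and 0 of 33 members. Among 26 groups of 5 animals examined for a value far from the others, none was found, where chance gives about 1 in 20.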

How the results depend on the processing

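Each result was recomputed with other charge rules, read minimums, scalings and animals. Of 351 recomputed values for comparisons and counts, 295 kept direction and call. The cause of the changes below was not tested. At a charge of 2 or more, the expansion between immunogens was 0.28, the expansion of members 0.10 and IGHJ1 -2.52 percentage points, with 5 IGHV genes higher among members, and 0 higher and 2 lower between immunogens. At a charge of 4 or more, the immunogen difference was -0.0110 for unique CDR3s and -0.174 for reads, the expansion of members -1.28 (call lost) and serine 0.55, with 3 residues, 0 higher and 0 lower IGHV genes past the threshold, and the immunogen comparison of IGHV genes was not run because a library was empty. With histidine counted, the read share difference was -0.145 and the expansion of members -0.57 (call lost). With the interior charge, the expansion between immunogens was 0.22, the share with 2 or more reads -4.21, IGHJ1 5.53, IGHJ2 1.19, IGHJ3 -8.00 and IGHJ4 1.28, with 0 higher and 0 lower IGHV genes. With CDR3s of 2 or more reads, which leaves nothing to compare for the share with 2 or more reads, the immunogen difference was -0.00739 for unique CDR3s and 0.029 for expansion, the expansion of members -0.70, with 4 residues, 1 higher and 6 lower IGHV genes. With the residues of both ends left out of the residue count, alanine was -0.85. With sequenced copies the read share difference was -0.00414. At equal IGHV use the charge difference was -0.0237 for CDR1, -0.0235 for CDR2 and -0.0198 for FR1 to FR3. Among members, DESeq2 gave 0 higher IGHV genes and log2 fold changes of -0.19 for IGHV5-7, -0.31 for IGHV5-25, 0.36 for IGHV5-54 and 0.018 for IGHV5-62, limma gave 0 higher and 49 lower, TMM 0 higher, and no filter 4 higher. Between immunogens DESeq2 and limma gave 0 higher. With single animals left out, the read share difference ranged from -0.119 to 0.215, the expansion between immunogens from -0.49 to 0.12, the expansion of members from -0.94 to -0.67, IGHJ1 from -2.49 to -1.58, the higher IGHV genes among members from 0 to 3 and between immunogens from 0 to 1. Animals of the 2 groups share only a number (correlations of same-numbered animals from -0.0693 to 0.268). With the replicate number as a block, no call changed: the differences were 0.176 for unique CDR3s, 0.03 for reads, 0.22 residues for length and -0.21 for expansion, where 5 pairs allow no p below 0.0625, and IGHV5-29 was at 3.73. Rare events are limited by depth, with 33 members in DNP3.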
